A study of Mus musculus with 16 samples.

Results

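Genes of 8 protease inhibitor families were described across prostate tissue and prostate carcinomas of mice. Members were chosen by gene symbol: the whey acidic protein (WAP) genes Wfdc and Slpi, the Kunitz genes Spint, the tissue inhibitors of metalloproteinases Timp, the serpins, the cystatins and the inter-alpha-trypsin inhibitor heavy chains Itih, without the unrelated Cstf genes. The rule took 95 of 16593 named genes, each read from its probe with the highest mean over 16 arrays, and 20 of them had further probes. Cstad matches the cystatin symbol pattern without being a cystatin gene and is counted because the rule takes it. Of the 95 genes, 31 reached an intensity of 200 on at least 1 array, and the other 64 (67.4%) stayed near background on all arrays, as did 45.7% of all genes. The 31 comprised 10 of 16 WAP genes, 2 of 4 Kunitz genes, 4 of 4 Timp genes, 2 of 16 serpin A genes, 3 of 25 serpin B genes, 4 of 8 serpins of the clades C to I, 5 of 17 cystatin genes and 1 of 5 Itih genes.

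Protease inhibitors set how far secreted and membrane-bound proteases act in a gland. WAP proteins are small secreted proteins held by disulfide bonds, and several block neutrophil elastase and related serine proteases. Kunitz inhibitors of the Spint group sit on epithelial membranes and block the proteases that activate hepatocyte growth factor, Timp proteins block matrix metalloproteinases, cystatins block cysteine cathepsins, and serpins trap serine proteases in a stable complex. The prostate secretes large amounts of such proteins, and many are made by luminal epithelial cells under androgen control.

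RNA was hybridised to 16 Illumina mouse bead arrays. TRAMP mice carry SV40 T antigen under the probasin promoter, which is active in prostate epithelium, and they received vehicle, AGN (a root extract of Angelica gigas) or D/DA (decursin with decursinol angelate, pyranocoumarins of that root), with no dose stated in the labels. Of the arrays, 3 carried neuroendocrine carcinomas (NECa) from the vehicle arm and 3 carried NECa from the AGN arm. A further 2 carried whole prostates labelled wild type and aged 24 to 28 weeks, and 8 carried the dorsal-lateral prostate (DLP) of wild-type C57BL/6 mice and of TRAMP mice given vehicle, AGN or D/DA, with 1 array for each at 16 and at 28 weeks. The strain field of both wild-type whole prostates reads TRAMP, while their title and genotype give wild type, which is how they were grouped. No age is given for the NECa. Whether each array stands for its own animal or for pooled RNA is not stated, so a p-value covers the spread among arrays, which may be technical. Within DLP, with 1 array per treatment and age, that spread is the departure from additive effects of treatment and age. It holds no spread of replicates.

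The tissue labels were set against marker genes. All 7 neuroendocrine markers measured were called higher in vehicle NECa than in wild-type prostate, among them Insm1, a transcription factor of neuroendocrine cells, at 3676 to 5607 in the 6 NECa and 130 to 153 on the other 10 arrays. All 7 luminal secretory markers measured were called lower in vehicle NECa, with Tgm4, the prostate transglutaminase, at 142 to 158 in NECa. The NECa differed in other cell types. Vehicle NECa 1 had the highest mean log2 level of macrophage (9.68), fibroblast (9.59) and smooth muscle markers (11.1), against 8.42 to 8.83, 7.67 to 8.72 and 8.04 to 9.63 in the other 5. Its basal epithelium markers were highest too (8.25, others 7.23 to 7.39), and AGN NECa 2 had the highest luminal level (8.52, others 7.20 to 7.74). Among the 8 DLP arrays, seminal vesicle markers ran from 11.2 to 14.1 and skeletal muscle markers from 9.14 to 11.8. In the wild-type whole prostates seminal vesicle markers stood at 13.6 and 11.8, and skeletal muscle markers at 11.9 and 9.38. The NECa had 7.20 to 7.42 and 7.39 to 7.88. The part of these markers in differences from whole prostate was not tested. Fewer cells of a type and less RNA per cell cannot be told apart in such samples.

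**Figure D1:**
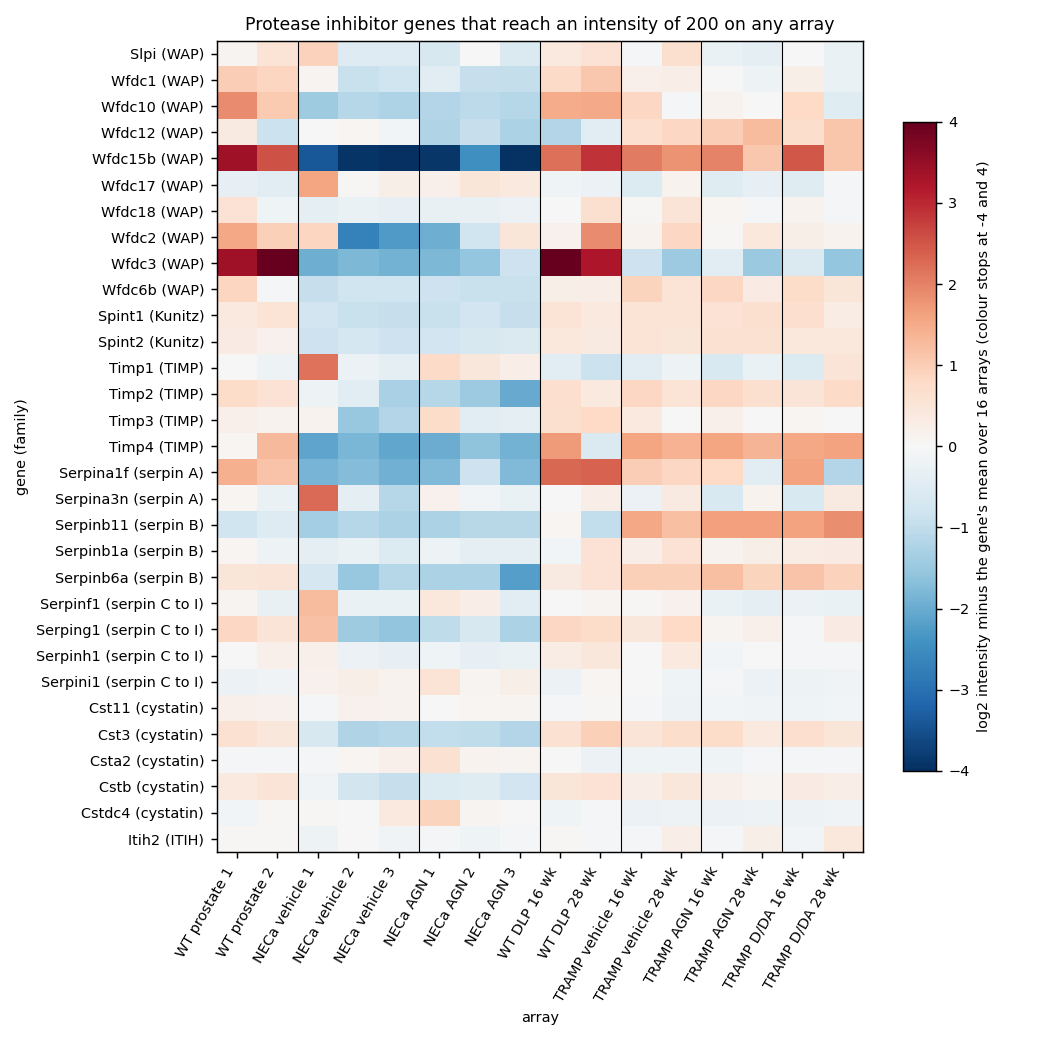
Heat map of the 31 genes that reach an intensity of 200, with arrays in columns and genes in rows. Colour gives log2 intensity minus the gene's own mean over 16 arrays. Wfdc15b, Wfdc3, Timp4 and Serpina1f are low in the 6 NECa columns, Wfdc3 is high in the 4 wild-type columns alone, and Serpinb11 is high in the 6 TRAMP DLP columns.

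The first comparison set vehicle NECa against wild-type whole prostate, to see which inhibitors the carcinoma and the gland differ in. The members with the largest differences, the secreted WAP genes Wfdc15b and Wfdc3, were lower in the carcinomas, and the members called higher were weak. In vehicle NECa 3 members rose and 17 fell at a limma adjusted p under 0.05, which is 21.1% of 95, against 31.7% of all genes (12.8% higher and 18.8% lower). The share of members called lower, 17.9%, was close to that of all genes. In AGN NECa 4 members rose and 16 fell against the same prostates, where 33.4% of all genes were called (14.1% higher and 19.3% lower). The median log2 difference over the 95 members was -0.02 in vehicle and 0.01 in AGN NECa, against -0.01 and 0.03 over all genes. The carcinoma groups share their 2 control arrays, so their values stand side by side and are no independent repeats. Normexp background subtraction changed the split to 1 higher and 41 lower for vehicle NECa and to 1 higher and 52 lower for AGN NECa.

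The WAP genes held the largest differences. Wfdc15b had intensities of 25282 and 14074 in the wild-type prostates, 229, 160 and 152 in vehicle NECa and 161, 439 and 156 in AGN NECa. All 6 NECa lay far below both prostates, and AGN NECa 2, with the highest luminal marker level, had the highest value of the 6. The log2 difference was -6.74 ± 0.41 in vehicle NECa (± is the standard error of the limma fit; adjusted p = 3.03e-07) and -6.41 ± 0.41 in AGN NECa (limma adjusted p = 4.4e-07), and both of its probes were called. Because background was not removed from these values, a difference against a level near 150 is a lower estimate.

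Wfdc3, another secreted WAP protein gene, read 5911 and 14220 in the prostates, 145, 162 and 151 in vehicle NECa and 160, 194 and 314 in AGN NECa. The groups did not overlap, although the prostates themselves differed by more than a factor of 2. It fell by 5.91 ± 0.34 in vehicle NECa (limma adjusted p = 2e-07) and by 5.42 ± 0.34 in AGN NECa. Wfdc10 went from 1323 and 735 to between 133 and 161 in vehicle NECa and between 156 and 172 in AGN NECa, a log2 difference of -2.74 ± 0.20 (limma adjusted p = 1.08e-06) and -2.60. Wfdc6b fell by 1.24, Wfdc18 by 0.51 and Wfdc1 by 1.44 ± 0.26 in vehicle NECa. Wfdc1 encodes ps20, a secreted protein of prostate stroma, and the smooth muscle markers, a stromal cell type, were lower in NECa as well (8.04 to 11.1, prostates 12.2 and 12.3), and their part in the result was not tested. In all, 6 of 16 WAP genes were called lower and 0 higher in vehicle NECa, against 18.8% and 12.8% of all genes. The Wfdc18 call was kept in 4 of 8 fits that left out 1 array.

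Wfdc2 and Slpi varied between single carcinomas. Wfdc2, which encodes the epididymal secretory protein HE4, read 5816 and 3856 in the prostates, 3665, 310 and 421 in vehicle NECa and 520, 1162 and 2797 in AGN NECa. Every NECa lay below both prostates, and vehicle NECa 1 and AGN NECa 3 came close to them. Its log2 difference of -2.60 ± 0.90 missed the threshold in vehicle NECa (limma adjusted p = 0.0515), although its other, dimmer probe was called. Without vehicle NECa 1 it was -3.71, which is no test because that array was picked by its high value. Slpi, the secretory leukocyte protease inhibitor that blocks neutrophil elastase, read 254 and 348 in the prostates, 447, 165 and 166 in vehicle NECa and 152, 239 and 160 in AGN NECa, so that vehicle NECa 1 alone exceeded the gland. Its difference in vehicle NECa was -0.37 ± 0.37 (limma adjusted p = 0.565), and -0.85 without vehicle NECa 1, again picked by its high value.

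Wfdc12 read 491 and 214 in the prostates, 389, 405 and 356 in vehicle NECa and 169, 202 and 160 in AGN NECa. The vehicle NECa lay between the prostates, whereas the AGN NECa lay below both. The difference from prostate was 0.24 ± 0.26 in vehicle NECa (limma adjusted p = 0.608) and -0.88 ± 0.26 in AGN NECa (limma adjusted p = 0.0244). The AGN call rests on the first prostate array: without it the difference was -0.28 (limma adjusted p = 0.26), and it also missed the threshold without AGN NECa 1 (0.0517) or AGN NECa 3 (0.0697).

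**Figure D2:**
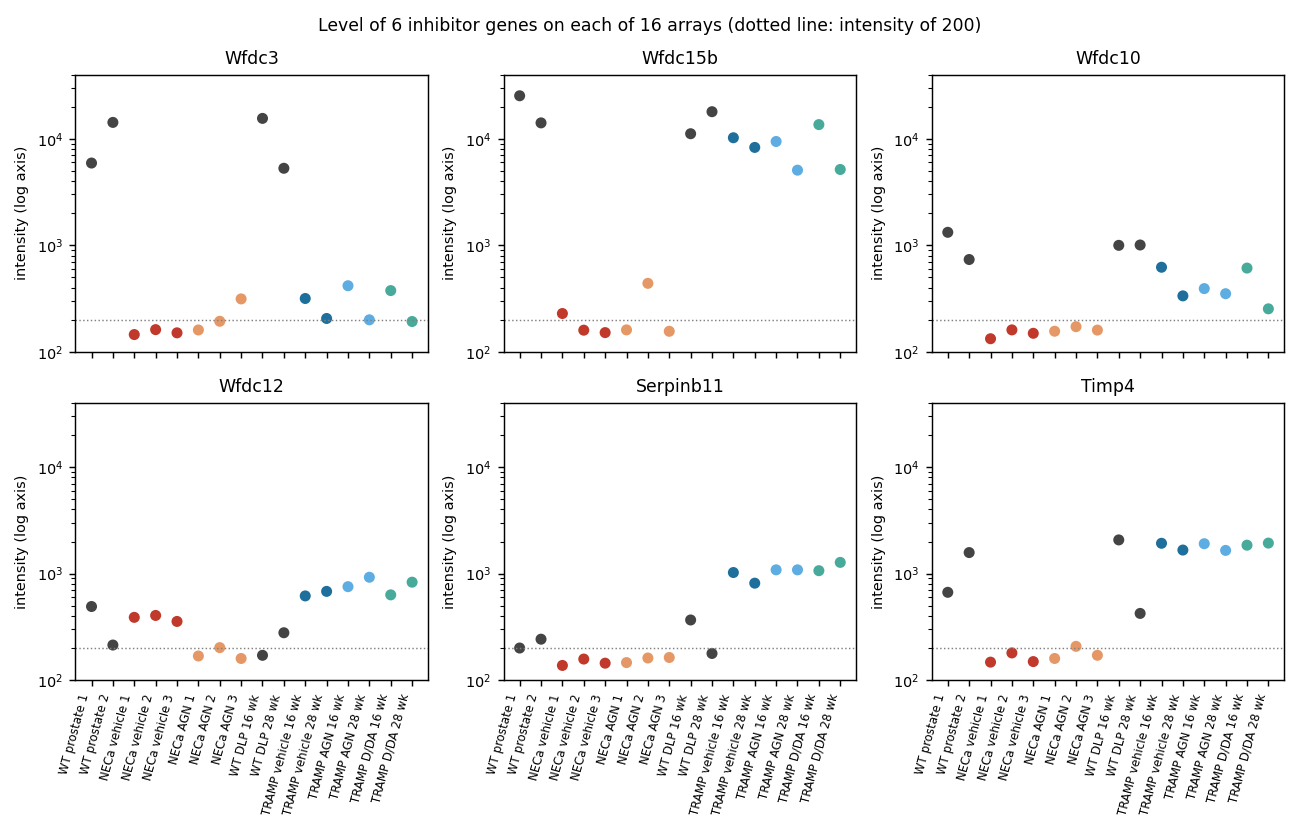
Intensity of Wfdc3, Wfdc15b, Wfdc10, Wfdc12, Serpinb11 and Timp4 on each of 16 arrays, 1 point per array on a log axis, with a dotted line at 200. Grey points are wild type, red and orange NECa, and blue and green TRAMP DLP; Wfdc3 lies at 5279 to 15509 in wild type and at 145 to 417 elsewhere.

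Both measured epithelial Kunitz inhibitors fell. Spint1 (hepatocyte growth factor activator inhibitor type 1) read 381 and 423 in the prostates and 153 to 173 in the 6 NECa, with no overlap. Its log2 difference was -1.31 ± 0.10 in vehicle NECa (limma adjusted p = 1.55e-06) and -1.32 in AGN NECa. Spint2, the second such inhibitor, fell from 320 and 285 to between 143 and 169, by 1.04 ± 0.09 and 0.92 ± 0.09. Spint4 and Spint5 stayed near background on every array. The proteases these inhibitors act on were lower too: St14, which encodes matriptase, read 953 and 812 in the prostates and 147 to 184 in NECa (log2 difference in vehicle NECa -2.55 ± 0.12), and Prss8, the prostasin gene, 1292 and 1237 against 147 to 236 (-2.97 ± 0.16).

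Of the 4 Timp genes, Timp4 and Timp2 fell, and Timp1 and Timp3 differed between single carcinomas. Timp4 read 668 and 1576 in the prostates and 148, 180, 149, 160, 208 and 171 in the NECa, all below the lower prostate, with log2 differences of -2.69 ± 0.28 in vehicle NECa (limma adjusted p = 1.62e-05) and -2.52 in AGN NECa. Timp2, which also takes part in activating gelatinase A, read 2818 and 2508 in the prostates, 1479, 1266 and 694 in vehicle NECa and 758, 623 and 417 in AGN NECa. Its difference was -1.28 ± 0.31 in vehicle NECa and -2.19 ± 0.31 in AGN NECa. The vehicle call missed the threshold without the first prostate array (limma adjusted p = 0.0607).

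Timp1, an inhibitor induced in stroma and inflammation, read 2168, 413 and 371 in vehicle NECa, 824, 669 and 585 in AGN NECa and 493 and 420 in the prostates. One carcinoma, vehicle NECa 1, set the vehicle mean, and the difference of 0.61 ± 0.58 did not pass (limma adjusted p = 0.54). Timp3, which is bound in the extracellular matrix, read 1303, 414 and 532 in vehicle NECa against 1367 and 1318, at -1.02 ± 0.44 (limma adjusted p = 0.119). Without vehicle NECa 1, picked by its high value, the Timp3 difference was -1.51.

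Among serpins, Serpina1f and Serpinb6a fell clearly. Serpina1f, of the alpha-1-antitrypsin gene cluster, read 1427 and 1159 in the prostates, at most 161 in vehicle NECa and 155, 298 and 156 in AGN NECa, again with AGN NECa 2 highest, at -3.11 ± 0.24 and -2.73 ± 0.24. Serpinb6a, an intracellular serpin, read 5773 and 5801 in the prostates and 882 to 2568 in the NECa, at -1.60 ± 0.30 and -2.08 ± 0.30. Serpinb11, a clade B serpin, was 200 and 242 in the prostates and 138 to 163 in NECa, at -0.59 ± 0.10 in vehicle NECa. Serpinb1a, an inhibitor of neutrophil elastase, fell by 0.33 in vehicle NECa, a call kept in 4 of 8 fits that left out 1 array and in 3 of 6 other settings.

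The members called higher were weak. Wfdc17 had the largest rise in vehicle NECa, at 1.00 ± 0.35, and narrowly missed the threshold (limma adjusted p = 0.0505). Serpini1 (neuroserpin, an inhibitor of tissue plasminogen activator in neurons) read 142 and 149 in the prostates, 187, 194 and 184 in vehicle NECa and 240, 177 and 197 in AGN NECa. All 6 NECa exceeded the prostates, by 0.37 ± 0.12 (limma adjusted p = 0.0312) and 0.48 ± 0.12 (0.00695) on the log2 scale. The vehicle call missed the threshold without either prostate or without vehicle NECa 2 or 3 (limma adjusted p between 0.0516 and 0.159), and the AGN call without the first prostate (0.0538). Serpina9 and Serpinb9c, both near background on every array, rose by 0.17 in vehicle NECa, and each call was kept in 1 of 8 fits that left out 1 array and in 2 of 5 other settings. In AGN NECa they rose by 0.18 and 0.24. Those calls were kept in 3 and 7 of 8 such fits and in 2 and 4 of 5 other settings. Serpinb10, near background too, rose by 0.19 in AGN NECa, a call kept in 6 of 8 such fits and in 2 of 5 other settings.

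Several further members are named because vehicle NECa 1 was high in them. Serping1, the complement C1 inhibitor, read 2391, 399 and 357 in vehicle NECa, 527, 687 and 443 in AGN NECa and 1883 and 1520 in the prostates. Its vehicle difference of -1.28 ± 0.63 did not pass (limma adjusted p = 0.173). Without vehicle NECa 1 it was -2.16, which is no test because that array was picked by its high value. Serpina3n, an acute-phase serpin, read 2258 in vehicle NECa 1 and 211 to 524 in the other NECa, and Serpinf1, the pigment epithelium-derived factor, 2959 and 885 to 1633. Serpinh1, a collagen chaperone, was at 233 in vehicle NECa 1 and at 161 to 182 in the others. The WAP gene Wfdc17, known from activated macrophages, was at 877 in vehicle NECa 1 and at 303 to 407 in the others. Its prostate mean was 225, and every vehicle NECa lay above both prostates. Vehicle NECa 1 had the highest value among the 6 NECa for 13 of the 31 genes (41.9%), against 18.1% of the 9014 genes that reach 200. The part of its higher macrophage, fibroblast, smooth muscle and basal epithelium markers in these values, and in those of Slpi and Wfdc2, was not tested.

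Cystatin C and stefin B fell from high levels. Cst3, the secreted cystatin C, read 10304 and 9286 in the prostates, 4362, 2978 and 3091 in vehicle NECa and 3450, 3387 and 3054 in AGN NECa, with no overlap, at -1.51 ± 0.17 (limma adjusted p = 3.75e-05) and -1.57 ± 0.17. Cstb, the intracellular stefin B, read 9098 and 9949 in the prostates and 3653 to 6293 in the NECa, at -1.05 ± 0.20 and -1.06 ± 0.20, but missed the threshold after quantile normalization (limma adjusted p = 0.0736 and 0.0668). The other 15 cystatin members were not called in either NECa group, and Cst6 and Csta1 were near background. Of the Itih genes, which carry the heavy chains that bind hyaluronan, Itih5, near background, fell by 0.23 in vehicle NECa, a call kept in 2 of 8 fits that left out 1 array, and Itih2 did not pass. Serpinb5 (maspin) and Serpina1b also stayed near background on all arrays.

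**Figure D3:**
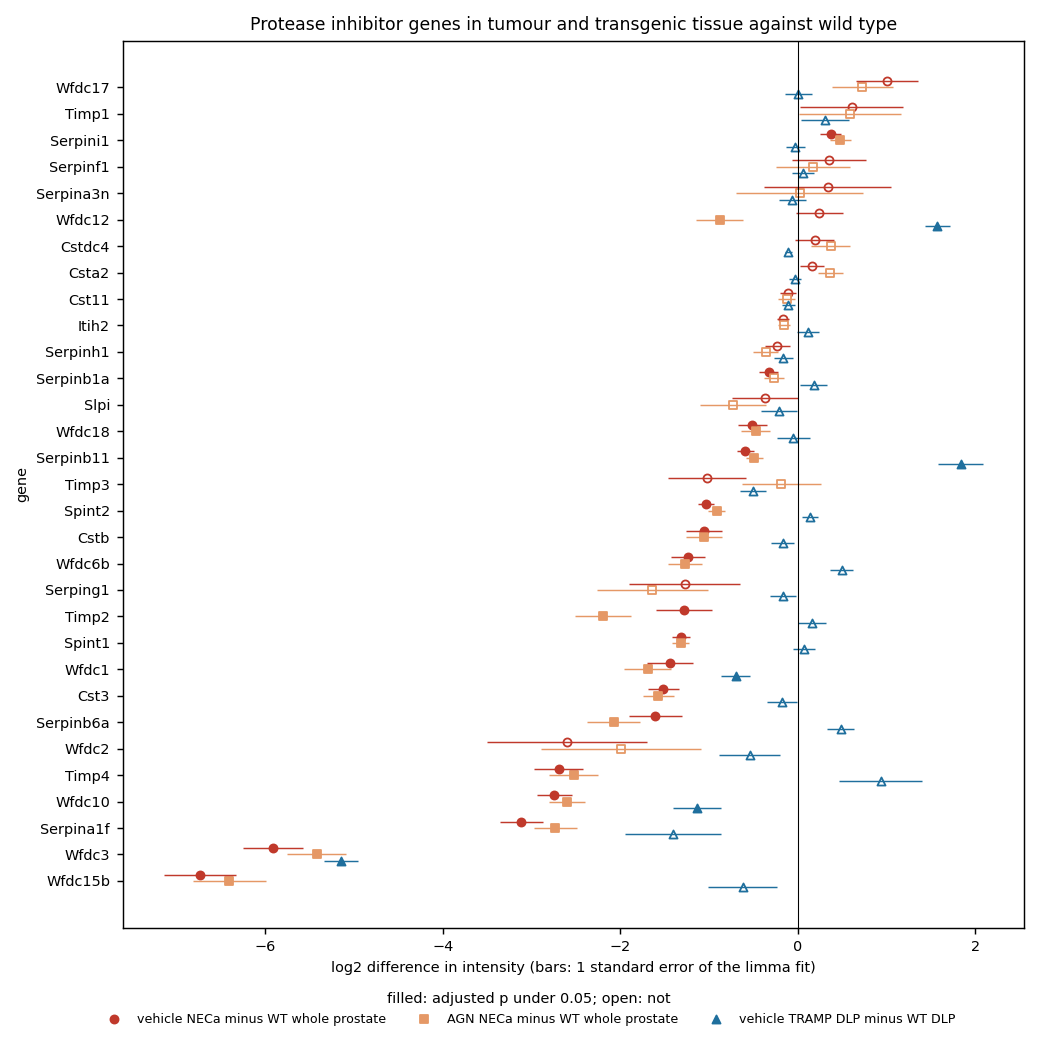
Log2 difference of each of the 31 genes in vehicle NECa and AGN NECa against wild-type whole prostate and in vehicle TRAMP DLP against wild-type DLP, with bars of 1 standard error and filled markers for an adjusted p under 0.05. Wfdc3 is far below 0 in all 3 comparisons, while Serpinb11 and Wfdc12 are above 0 in DLP (1.84 and 1.57).

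The second comparison set vehicle TRAMP DLP against wild-type DLP in a fit of 8 arrays with terms for treatment and age. Wfdc3 fell in the transgenic lobe while Serpinb11 and Wfdc12 rose, and of the 17 members lower in vehicle NECa 3 were lower and 1 was higher here. The test called 8 of 95 members, 2 higher and 6 lower, or 8.42%, against 8.56% of all genes (3.41% higher and 5.15% lower), so the share of members called was close to the background. The median difference was -0.07 over members and over all genes. After quantile normalization 3 members were higher and 2 lower.

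Wfdc3 read 15509 at 16 weeks and 5279 at 28 weeks in wild-type DLP and 317 and 206 in vehicle TRAMP DLP. Every TRAMP DLP array, treated or not, lay at 193 to 417, below both wild-type arrays. The log2 difference was -5.15 ± 0.19, or -5.61 at 16 and -4.68 at 28 weeks. Probasin, Pbsn, a luminal marker whose promoter also drives the transgene, read 1312 and 2557 in wild type and 280 and 166 in vehicle TRAMP DLP, and the mean log2 level of luminal markers was 12.8 and 12.7 against 11.9 and 11.5; their part in the result was not tested. Wfdc10 fell by 1.13 ± 0.27 from 999 and 1006 to 622 and 335 (limma adjusted p = 0.0386), and the call was lost when any of several arrays was left out (up to 0.195). Wfdc1 fell by 0.70 ± 0.16 (limma adjusted p = 0.0375), from 542 and 662 to 362 and 375, and was likewise lost in several such fits. The other called genes, Serpinb6b, Serpinb12 and Cstad, fell by 0.38, 0.23 and 0.23 near background, and were kept in 3, 3 and 1 of 8 fits that left out 1 array.

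Serpinb11 read 367 and 178 in wild-type DLP at 16 and 28 weeks and 1024 and 813 in vehicle TRAMP DLP. The 4 treated TRAMP arrays read 1065 to 1274, so all 6 TRAMP arrays lay above both wild-type arrays. The difference was 1.84 ± 0.26 (limma adjusted p = 0.00475), and it missed the threshold without the vehicle array of 16 weeks (0.0514) or of 28 weeks (0.0557). Wfdc12 read 171 and 279 in wild type and 618 and 681 in vehicle TRAMP DLP, and 618 to 924 over all 6 TRAMP arrays. It rose by 1.57 ± 0.14 (limma adjusted p = 0.000606). Only Wfdc3 and Wfdc12 of the 8 kept their call under every alternative setting and with each array left out.

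Differences were also read at each age alone, for called and uncalled members alike. At an absolute log2 difference of 1, which is not a test, 4 members differed at 16 weeks (2 higher and 2 lower), against 1.88% of all genes (1.16% higher and 0.723% lower). They were Wfdc12, Serpinb11, Serpina1f and Wfdc3. At 28 weeks 8 differed (3 higher and 5 lower), against 3.04% (1.48% higher and 1.56% lower): the same 4 with Timp4 higher and Wfdc10, Wfdc15b and Wfdc2 lower. Timp4 read 2071 and 1925 in wild-type and vehicle DLP at 16 weeks but 423 and 1663 at 28 weeks, so the wild-type arrays differed more from each other than vehicle arrays did, and the joint difference was 0.93 ± 0.47 (limma adjusted p = 0.227). Without the wild-type array of 16 weeks it was 2.02, a value that rests on the 1 wild-type array left. Wfdc15b read 11136 and 17921 in wild type and 10208 and 8284 in vehicle TRAMP DLP, at -0.62 ± 0.39 (limma adjusted p = 0.322), far from its level in NECa. Serpina1f read 2599 and 2724 against 1060 and 948, at -1.41 ± 0.54 (limma adjusted p = 0.14). Wfdc2 read 2234 and 7492 against 2208 and 3566, at -0.54 ± 0.34. Spint1, Spint2, Cst3, Cstb, Timp1, Timp2, Serping1, Serpinf1, Serpina3n and Slpi were not called, with log2 differences between -0.21 and 0.31.

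Promoter sequences are shown for Wfdc3 and Wfdc15b, the members with the largest falls in NECa, and for Wfdc12 and Serpinb11, the members that rose in TRAMP DLP. Each runs from 250 bases before to 50 after the start in RefSeq (GRCm38.p6), 5′ to 3′ on the gene's strand. The hexamer AGAACA, or TGTTCT on the other strand, is the half-site of the androgen receptor element and is in capitals. Wfdc3 lies at chr2:164743218-164743517 (minus strand) and Wfdc15b at chr2:164221614-164221913 (minus strand). Wfdc12, which rose in TRAMP DLP, lies at chr2:164190509-164190808 (minus strand), and Serpinb11 at chr1:107362064-107362363 (plus strand).
Wfdc3: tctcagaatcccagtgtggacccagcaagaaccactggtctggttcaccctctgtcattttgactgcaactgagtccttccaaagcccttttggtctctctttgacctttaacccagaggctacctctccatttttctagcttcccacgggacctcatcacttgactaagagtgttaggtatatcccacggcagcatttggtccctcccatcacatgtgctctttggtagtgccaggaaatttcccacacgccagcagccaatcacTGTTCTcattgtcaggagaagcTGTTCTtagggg
Wfdc15b: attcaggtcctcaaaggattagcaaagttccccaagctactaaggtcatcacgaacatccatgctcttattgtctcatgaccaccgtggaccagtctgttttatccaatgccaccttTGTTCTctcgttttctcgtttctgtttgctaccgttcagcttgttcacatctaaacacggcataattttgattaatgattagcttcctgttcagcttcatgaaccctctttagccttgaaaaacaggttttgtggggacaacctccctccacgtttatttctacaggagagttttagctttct
Wfdc12: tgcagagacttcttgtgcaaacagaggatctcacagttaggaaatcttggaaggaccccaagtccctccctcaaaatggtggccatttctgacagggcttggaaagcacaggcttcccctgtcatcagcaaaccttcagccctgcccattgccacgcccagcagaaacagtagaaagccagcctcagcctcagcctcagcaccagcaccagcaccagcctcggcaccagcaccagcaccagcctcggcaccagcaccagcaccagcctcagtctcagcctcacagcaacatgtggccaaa
Serpinb11: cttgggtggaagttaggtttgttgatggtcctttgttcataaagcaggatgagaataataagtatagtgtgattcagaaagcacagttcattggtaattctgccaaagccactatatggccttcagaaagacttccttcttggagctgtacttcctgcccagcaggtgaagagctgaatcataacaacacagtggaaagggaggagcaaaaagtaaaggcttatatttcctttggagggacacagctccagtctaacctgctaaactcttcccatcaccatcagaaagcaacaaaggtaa
Wfdc3 held 2 half-sites and Wfdc15b 1, whereas Wfdc12 and Serpinb11 held 0. Promoters of this table were matched for 80 of the 95 members. The hexamer on either strand occurred in 26 of these 80 promoters (32.5%), in 5 of 26 promoters of genes that reach 200 (19.2%) and in 3 of 11 promoters of members called at least 2-fold lower in vehicle NECa (27.3%), against 19% of 27025 promoters of all genes of the same length. The full androgen response element, both half-sites facing each other with 3 bases between, occurred in 0 of the 80 and in 1 of all 27025. A match is a description of these letters and not a binding site.

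Wfdc3, Wfdc15b, Wfdc12 and 11 other members form a run on mouse chromosome 2. In order they are Wfdc5, Wfdc12, Wfdc15b, Slpi, Wfdc2, Wfdc6a, Wfdc8, Wfdc6b, Wfdc16, Wfdc10, Wfdc13, Spint4, Spint5 and Wfdc3, within a stretch of 39 annotated genes that also holds Svs2 to Svs6 of the seminal vesicle secretory genes and Eppin. Of the 14, 7 reached 200. In vehicle NECa 4 of 14 fell, in AGN NECa 5 of 14, and in vehicle TRAMP DLP 2 fell and 1 rose. Of all genes 18.8%, 19.3% and 5.15% were called lower in these comparisons, and 3.41% higher in the last. Wfdc3, at one end, fell in TRAMP DLP by 5.15 while Wfdc12, near the other, rose by 1.57, so genes of the run moved in opposite directions in the same tissue. Svs2, which lies among them, read 21918 and 21572 in wild-type DLP and 15746 and 13222 in vehicle TRAMP DLP. It does not stand for the seminal vesicle markers, whose mean log2 level was higher with vehicle at 16 weeks and lower at 28 weeks. That mean was 12.3 and 14.1 in wild type and 13.9 and 13.1 with vehicle. Elsewhere, 1 of 15 serpin A genes on chromosome 12 and 2 of 14 serpin B genes on chromosome 13 fell in vehicle NECa.

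**Figure D4:**
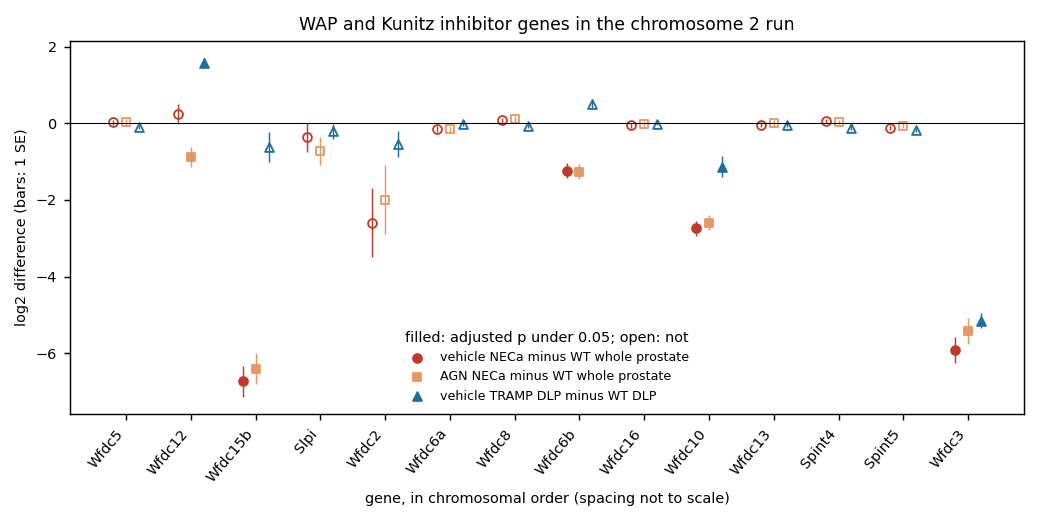
Log2 difference of the 14 inhibitor genes of the chromosome 2 run in gene order, without scale, for vehicle NECa and AGN NECa against wild-type prostate and vehicle TRAMP DLP against wild-type DLP, with bars of 1 standard error. Filled markers have an adjusted p under 0.05, and Wfdc12 alone is called higher in DLP.

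A direct comparison of the 6 NECa with the 6 TRAMP DLP arrays called 72 of 95 members, 52 higher and 20 lower (75.8%), against 76.7% of all genes (55.1% higher and 21.6% lower). DLP arrays of both ages served as replicates in this fit. The median over all probes was shifted by 0.11 in this comparison, and the members near background took part in that shift. Quantile normalization left 7 higher and 21 lower, and normexp subtraction 3 higher and 25 lower, so the directions of weak genes depend on the scaling. Large falls in NECa remained under both, among them Wfdc15b at -5.35 ± 0.30, Timp4 at -3.43 ± 0.29, Serpinb11 at -2.79 ± 0.14, Serpinb6a at -2.36 ± 0.17, Serpina1f at -2.09 ± 0.35, Timp2 at -1.77 ± 0.18, Cst3 at -1.61 ± 0.11 and Wfdc12 at -1.50 ± 0.17. Wfdc17, at 0.79 ± 0.21, Cstdc4, at 0.44 ± 0.12, and Serpini1, at 0.39 ± 0.07, were called higher in NECa. They kept that call under every alternative run that tested them, except a 2-fold minimum. The filter on dim probes left Cstdc4 untested. Wfdc3, already low in TRAMP DLP, did not pass (-0.58 ± 0.30, limma adjusted p = 0.0843). Its standard error also took in the spread among wild-type arrays, which are not part of this comparison.

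Between wild-type whole prostate and wild-type DLP limma called 0 members, against 5.82% of all genes (3.3% higher and 2.53% lower), with 11 members at an unadjusted p under 0.05 and 3 called after normexp subtraction. The smallest p belonged to Serpind1, the heparin cofactor II gene, near background at 0.20 ± 0.06 (limma adjusted p = 0.0712). Wfdc12 was highest in the first whole prostate (491) and lowest in DLP of 16 weeks (171). In this fit too the DLP arrays of both ages served as replicates, so any age difference entered the spread. That spread was also taken over the 6 NECa, and 2 members were called without vehicle NECa 1.

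AGN against vehicle was compared in NECa on 3 against 3 arrays. Wfdc12 alone was called among members, lower in 3 of 3 AGN carcinomas (169, 202 and 160 against 389, 405 and 356), which is 1 of 95, against 0.0603% of all genes (0.0121% higher and 0.0482% lower). Its log2 difference was -1.12 ± 0.12 (limma adjusted p = 0.0073) and held with each single array left out, at -1.05 to -1.22. It missed the threshold after normexp subtraction (0.0812), after a filter on dim probes (0.0642) and without vehicle NECa 1 and AGN NECa 2 together (0.0695). Timp2, at -0.91 ± 0.29 (limma adjusted p = 0.494), and Wfdc3, at 0.49 ± 0.19 (0.713), were the 2 other members with an unadjusted p under 0.05, and their groups overlapped. Slpi, Serping1, Serpina3n and Timp1 had wide 95% intervals of the difference, with vehicle NECa 1 far from the other arrays. They were -1.63 to 0.90 for Serping1 and -1.76 to 1.13 for Serpina3n, and Wfdc2 had -1.22 to 2.43. The interval was -0.17 to 0.15 for Spint1 and -0.42 to 0.31 for Cst3.

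**Figure D5:**
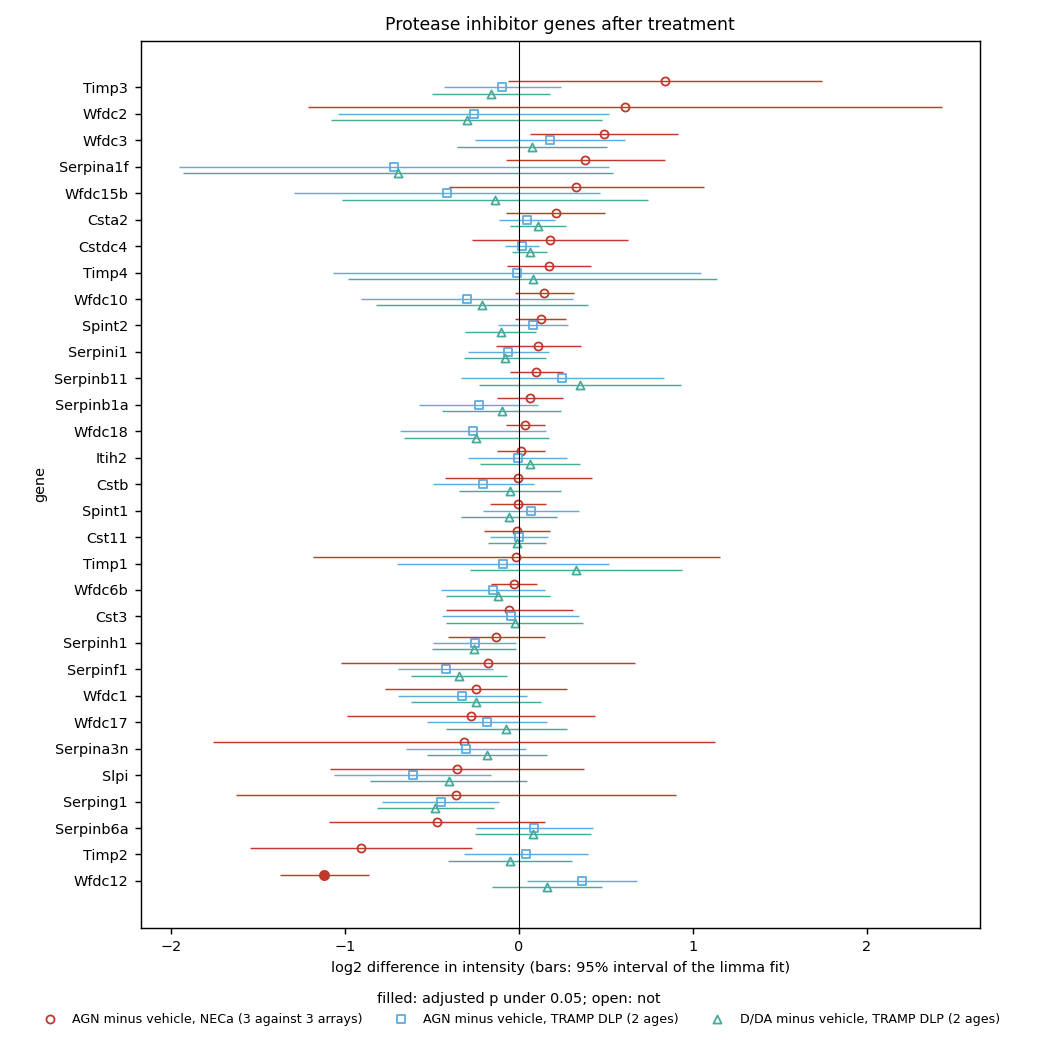
Log2 difference of the 31 genes for AGN against vehicle in NECa and for AGN and D/DA against vehicle in TRAMP DLP, with 95% intervals of the limma fit. Wfdc12 in NECa (-1.12) is the only filled marker, and in DLP its AGN difference lies above 0 (0.36).

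In TRAMP DLP neither treatment changed a member beyond the test. AGN against vehicle gave 0 calls, against 0% of all genes, with 9 members at an unadjusted p under 0.05. D/DA against vehicle gave 0 (0% of all genes, 11 unadjusted), and D/DA against AGN, the 1 pair of agents, gave 0 (0%, 3 unadjusted). The limma adjusted p of the members was at least 0.935, 0.582 and 1. Wfdc12 read 618 and 681 with vehicle, 754 and 924 with AGN and 632 and 831 with D/DA at 16 and 28 weeks. Its difference was 0.36 ± 0.14 for AGN (95% interval 0.05 to 0.68) and 0.16 ± 0.14 for D/DA (-0.16 to 0.48), and between the agents -0.20 (-0.52 to 0.11).

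Serpinf1, Slpi and Serping1 had the smallest p for AGN among members that reach 200. Serping1 read 1449 and 1831 with vehicle, 1152 and 1231 with AGN and 1022 and 1328 with D/DA, so both treated groups lay below both vehicle arrays, at -0.45 ± 0.15 and -0.48 ± 0.15. Serpinf1 read 1247 and 1377 with vehicle, 1004 and 952 with AGN and 1040 and 1023 with D/DA, at -0.42 ± 0.12 and -0.35 ± 0.12. Slpi read 224 and 369 with vehicle, 195 and 181 with AGN and 239 and 196 with D/DA, at -0.61 ± 0.20 and -0.41 ± 0.20. None of these passed, and the agents share their vehicle arrays. Among TRAMP DLP, the vehicle array also had the highest markers of several other cell types at each age. At 16 and 28 weeks adipocyte markers stood at 8.20 and 9.06 with vehicle (treated 7.58 to 8.31), fibroblast markers at 8.94 and 9.11 (treated 8.63 to 8.75), macrophage markers at 8.27 and 8.77 (treated 8.17 to 8.49) and smooth muscle markers at 11.7 and 11.5 (treated 11.3 to 11.6). Their part in these values was not tested.

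Serpinb11, Wfdc3, Wfdc10 and Wfdc15b did not return toward wild type by a called amount. The 95% interval for Wfdc3 was -0.25 to 0.61 with AGN and -0.35 to 0.51 with D/DA, where wild type lay 5.15 above vehicle. For Serpinb11 it was -0.33 to 0.83 and -0.23 to 0.93, where wild type lay 1.84 below. At single ages, without a test, 0 members differed by 1 on the log2 scale at 16 weeks for AGN (0.0542% of all genes, 0.0241% higher and 0.0301% lower) or D/DA (0.0422%, 0% higher and 0.0422% lower). At 28 weeks Serpina1f and Slpi were lower with AGN, at -1.25 and -1.03 (0.579% of all genes differed, 0.199% higher and 0.38% lower), and Serpina1f was lower with D/DA at -2.00 (0.44%, 0.0362% higher and 0.404% lower). Between the agents 0 members differed by that much at 16 weeks (0.0603% of all genes, 0.0301% either way) or at 28 weeks (0.108%, 0.0603% higher and 0.0482% lower). Serpina1f read 948 with vehicle, 398 with AGN and 238 with D/DA at 28 weeks but 1060, 930 and 1608 at 16 weeks.

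The AGN difference itself was compared between tissues, again with DLP arrays of both ages as replicates. Limma called 0 members for the interaction of NECa and DLP, against 0.0362% of all genes (0.0121% higher and 0.0241% lower), with 2 members at an unadjusted p under 0.05. For Wfdc12, -1.12 in NECa and 0.36 in DLP, the difference was -1.48 ± 0.39 (limma adjusted p = 0.383), with adjusted p from 0.189 to 1 over the alternatives. For Timp2 it was -0.95 ± 0.40 (limma adjusted p = 0.93). These standard errors also took in the spread among wild-type arrays, which are not part of this comparison. In the separate fits of NECa and of DLP, the standard error for Wfdc12 was 0.12 and 0.14. The missed threshold therefore does not show that the AGN difference in Wfdc12 is the same in both tissues.

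Age was compared over the 8 DLP arrays. Wfdc3 was the 1 member called, against 0.0964% of all genes (0.0663% higher and 0.0301% lower), and was lower at 28 than at 16 weeks in 4 of 4 pairs: 15509 to 5279 in wild type, 317 to 206 with vehicle, 417 to 200 with AGN and 376 to 193 with D/DA. The difference was -1.05 ± 0.13 (limma adjusted p = 0.0429), and it missed the threshold in most fits that left out an array (up to 0.272) and with all 16 arrays in the fit (0.324). Serpina3n read 306 to 461 at 16 weeks and 512 to 605 at 28 weeks, with no overlap, at 0.65 ± 0.11, and did not pass (limma adjusted p = 0.0911). Wfdc12 was at 0.38 ± 0.10 (0.321), Wfdc10 at -0.58 ± 0.19 (0.436), Wfdc2 at 0.68 ± 0.24 (0.465) and Itih2 at 0.26 ± 0.09 (0.44). Cst3 had an interval of -0.28 to 0.28.

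The proteases that these families act on, from lists chosen with earlier results of the data known, were counted in the same comparisons. In vehicle NECa 10 of 28 serine proteases of epithelium and plasminogen activation fell and 1 rose, where 18.8% of all genes were called lower and 12.8% higher, which is also the background for the other lists here. The largest falls were those of Tmprss2 at -4.67 ± 0.45, Prss8 and St14. Of 22 metalloproteinases 3 fell and 5 rose, with Mmp7, the epithelial matrilysin, at -1.94 ± 0.12 and Mmp13, a collagenase, at 1.36 ± 0.33. Of 14 cysteine cathepsins and legumain 5 fell and 2 rose. Lgmn, the legumain gene, whose protease cystatin C also inhibits, read 418 and 412 in the prostates and 1763 to 2415 in the 6 NECa, at 2.35 ± 0.17 in vehicle NECa. Of 22 inhibitors outside the symbol rule 7 fell and 1 rose, led by the Kazal inhibitor Spink1 at -8.35 ± 0.40.

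In vehicle TRAMP DLP, 3 of the 28 serine proteases rose and 4 fell, against 3.41% of all genes called higher and 5.15% lower. Klk1b24, a glandular kallikrein, read 198 and 170 in wild type and 860 and 576 in vehicle TRAMP DLP (1.94 ± 0.14), and Hgfac, the hepatocyte growth factor activator that Spint1 inhibits, 278 and 305 against 1030 and 1117 (1.88 ± 0.13). Plau, the urokinase gene, fell by 1.61 ± 0.24. St14 and Prss8, with limma adjusted p of 0.268 and 0.323, did not pass there. Of the 22 metalloproteinases 1 fell, Mmp7 by 1.06, and of the 14 cathepsins and legumain 1 rose, Ctse (cathepsin E) by 1.58. Of the 22 other inhibitors 2 rose and 2 fell, Spink1 by 1.57. Spint1 itself read 427 and 387 in wild type and 430 and 423 in vehicle TRAMP DLP, at 0.07 ± 0.12.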

How the data were processed

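RNA of 16 mouse prostate samples was measured on Illumina bead arrays. The deposited values are linear normalized intensities; lumi is named without a version per the submitters' processing notes, the normalization method is not given in the sources used here, and background was not removed, so log2 differences of weak genes are compressed. A further 32 deposited columns could not be matched to samples and were not used. Probes were named through the platform annotation, 1 probe per gene with the highest mean over 16 arrays. Log2 intensities were fitted with limma 3.58.1 in R 4.3.3 (lmFit, eBayes with trend), p-values were Benjamini-Hochberg adjusted over 25697 probes, and an adjusted p under 0.05 was called. NECa and prostate were fitted by group, and DLP additively by treatment and age over 8 arrays. Comparisons across both sets used all 16 without an age term, so the DLP arrays of both ages served as replicates. Groups outside such a comparison also entered its estimate of the spread. The number of arrays limits the precision. Near background means under 200 on all 16 arrays. The labels name no batch.

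Members and lists were chosen with earlier results of these data known. Named genes were the 8 highest and 8 lowest called members of each comparison, the smallest p where fewer were called, and a list of well-known inhibitors; of other genes, at most 3 per list with the largest called change. In the comparisons with whole prostate, Wfdc6b, Wfdc17, Wfdc18, Serpinb11 and Serpinb1a lie outside this rule and were chosen after their values were seen. Alternatives were quantile normalization, normexp subtraction, a filter on dim probes, the mean of a gene's probes, a 2-fold minimum, a replicate block, all 16 arrays in 1 fit, TRAMP DLP alone and each array left out; leaving out vehicle NECa 1 and AGN NECa 2 together was added after seeing the data. Counts of other settings that kept a call leave out the 2-fold minimum. The fits were tested on simulated data.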

Additional observations from a re-analysis of the deposited data

How the results depend on the processing

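Counts of members called changed as follows. Against wild-type prostate, the 20 calls in vehicle NECa became 42 with normexp and 13 with a 2-fold minimum, and 15 to 28 with an array left out. The 20 in AGN NECa became 53 with normexp, 12 with a 2-fold minimum, 32 without vehicle NECa 1 and AGN NECa 2 together, and 16 to 30 with an array left out. A replicate block gave 19 and 18. For AGN against vehicle NECa, the 1 call became 0 with normexp, with the filter on dim probes and without both carcinomas, and 5 with the replicate block (3 higher, 2 lower), and it stayed at 1 with each array left out. The deviations of same-numbered carcinomas from their group means correlated at -0.039, -0.26 and 0.164. Such deviations sum to 0 within a group by construction, and whether these carcinomas share more than a number was not tested. For vehicle TRAMP against wild-type DLP, the 8 calls became 5 with quantile normalization, the filter or all 16 arrays, 4 with normexp or a 2-fold minimum, and 2 to 14 with an array left out. The lowest came without either vehicle array and the highest without the wild-type array of 16 weeks. For age, the 1 call became 0 with the filter, the mean of probes or all 16 arrays, 5 in TRAMP DLP alone, and 0 to 6 with an array left out. NECa against TRAMP DLP went from 72 to 28 with quantile normalization or normexp, 23 with the filter, 14 with a 2-fold minimum, and 66 to 84 with an array left out. Whole prostate against DLP went from 0 to 3 with normexp and 0 to 2 with an array left out. The cause was not tested, apart from fewer probes or arrays where these were removed. Directions reversed for Csta1 in AGN NECa against prostate (-0.27 with normexp) and Cst6 in NECa against TRAMP DLP (-0.0025 with quantile normalization, -0.043 with normexp), both near background. Signal close to background limits 64 of the 95 members.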
